A study of Mus musculus with 12 samples.

Results

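The odorant receptor genes of the chromosome 19 cluster were taken as all genes with a symbol from Olfr1417 to Olfr1505 that had an array probe naming that gene alone. They numbered 56 of 19937 genes measured and 56 of 1026 measured odorant receptor genes. RefSeq lists 87 genes in this range of symbols, all on mouse chromosome 19, of which 60 are protein coding and 27 are pseudogenes. The 56 measured genes were all protein coding, each with 1 probe. The coding genes Olfr1425, Olfr1432, Olfr1437 and Olfr1458 had no probe of their own, and no pseudogene of the range had one.

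The tissue was olfactory epithelium of male C57BL/6 mice, sampled over 2 circadian cycles at 12 time points from circadian time (CT) 12 to CT56 at steps of 4 h. All 48 mice had been held for at least 14 days in a cycle of 12 h light and 12 h dark and were then kept in constant darkness, with the first tissue taken 24 h after lights off. Each time point was 1 pool of RNA from 4 mice on 1 Affymetrix array, so p-values measure the spread between pools and not between mice, with a precision set by the number of arrays. Cycle 2 is CT36 to CT56 and cycle 1 is CT12 to CT32, while subjective night holds the phases 12, 16 and 20 h and subjective day the phases 0, 4 and 8 h. The 11 markers of mature olfactory sensory neurons, among them Omp and the cyclic nucleotide gated channel subunits, were all brighter than the median gene, with mean log2 intensities from 10.7 to 13.7.

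An odorant receptor is a G protein coupled receptor in the cilia of an olfactory sensory neuron. Each mature neuron transcribes a single receptor gene out of a very large family, usually from a single allele, so each gene is active in a small part of the neurons. Binding of an odorant acts through the G protein subunit Gnal and the adenylyl cyclase Adcy3 to open cation channels. Transcription factors such as Lhx2 and the Ebf proteins bind near receptor genes and at shared enhancers, and take part in the choice of the receptor. In whole tissue, fewer neurons with a given receptor and less receptor RNA per neuron cannot be told apart.

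The receptors lie in 4 blocks of 4, 10, 2 and 40 measured genes in order along the chromosome, separated by 12 protein coding genes that are not receptors, such as Osbp, a lipid transfer protein, and Mpeg1, a pore-forming protein of macrophages. The synonyms in RefSeq give each gene a MOR number, a naming of mouse odorant receptors by sequence similarity. MOR202 held 30 of the 56 genes, MOR266 held 8, MOR239 held 5, MOR212 held 4, MOR214 and MOR211 held 3 each, MOR215 held 2 and MOR127 held 1. The MOR215 receptor Olfr1440 is known as a receptor for muscone, a musk odorant. The ligands of the other members were not annotated in the sources used here.

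Some members of this cluster are nearly identical at the start of the coding sequence. Identity beyond the first 50 coding bases was not compared. The first 50 coding bases of neighbours Olfr1446 and Olfr1447 were the same, and those of Olfr1502 and Olfr1505 differed at 1 base, shown in capitals below. These stretches come from RefSeq on GRCm38.p6, at chr19:12890526-12890575 and chr19:12901729-12901778 on the minus strand for the first pair, and at chr19:13861795-13861844 and chr19:13919022-13919071 on the plus strand for the second. Whether RNA of a member reached the probe of another was not tested.
Olfr1446: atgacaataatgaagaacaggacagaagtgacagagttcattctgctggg
Olfr1447: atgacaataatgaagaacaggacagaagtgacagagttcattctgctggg
Olfr1502: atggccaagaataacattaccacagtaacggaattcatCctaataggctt
Olfr1505: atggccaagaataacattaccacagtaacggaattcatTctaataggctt

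RefSeq windows of 250 bases before to 50 after the annotated start were at hand for 54 of the 56 genes. For 47 of them the annotated start was the coding start, so the window need not hold the start of transcription. The homeodomain core TAATNA, searched on both strands, was present in 38 of 54 windows (70.4%), against 65.6% of 893 windows of other odorant receptors and 26.5% of all 32851 windows. The E-box CACGTG, the element bound by the clock factors, was present in 1 of 54 windows (1.85%), against 2.13% of other receptor windows and 7.15% of all windows. The motif TATAAA, also searched on both strands, was present in 31.5% of the members' windows, 41.7% of other receptor windows and 13.6% of all windows. Stretches of 3 windows are shown, with the core in capitals for Olfr1467 and Olfr1477 (the members with the largest 24 h amplitude and the largest spread over pools) and the E-box in capitals for Olfr1471, the single member with one. They lie on the plus strand of GRCm38.p6 at chr19:13364530-13364629, chr19:13500446-13500545 and chr19:13444788-13444853.
Olfr1467: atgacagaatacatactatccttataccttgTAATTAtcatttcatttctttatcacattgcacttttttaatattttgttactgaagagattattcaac
Olfr1477: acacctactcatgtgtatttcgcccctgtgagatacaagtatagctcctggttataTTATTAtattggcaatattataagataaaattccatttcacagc
Olfr1471: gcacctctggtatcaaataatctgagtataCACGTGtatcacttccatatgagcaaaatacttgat

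Mean log2 intensity over the 12 pools ran from 4.25 for Olfr1434, a MOR214 receptor, to 9.61 for Olfr1495, a MOR266 receptor, with a median of 6.63. These are brightnesses of different probes, so they do not rank the genes by RNA. As a measure of probes with little target, the 95th percentile of the 167 vomeronasal receptor genes, which belong to another sensory organ, was 6.60. Above it were 29 of the 56 members (51.8%), against 626 of the 970 other odorant receptors (64.5%). After Olfr1495 the brightest probes were Olfr1497 and Olfr1500 of MOR212, at 9.35 and 9.26, and Olfr1449 of MOR202 at 9.10. The dimmest after Olfr1434 were Olfr1462 and Olfr1443 of MOR202, at 4.42 and 4.55.

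The standard deviation over the 12 pools ran from 0.07 to 0.52, with a median of 0.17, against 0.18 for the other odorant receptors and 0.13 for all genes. The largest was that of Olfr1477, followed by Olfr1463, Olfr1484, Olfr1459 and Olfr1467 of the same MOR202 family and by Olfr1427 of MOR239. Olfr1463 read 8.22 at its lowest, in the CT40 pool, and 9.40 at its highest, in the CT56 pool. Olfr1427 was instead highest at CT12, at 7.72, and lowest at CT40, at 6.65. Brighter probes tended to vary more (Pearson's r of 0.35 and Spearman's rho of 0.42 between mean and standard deviation over 56 genes, which share the 12 arrays).

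**Figure D1:**
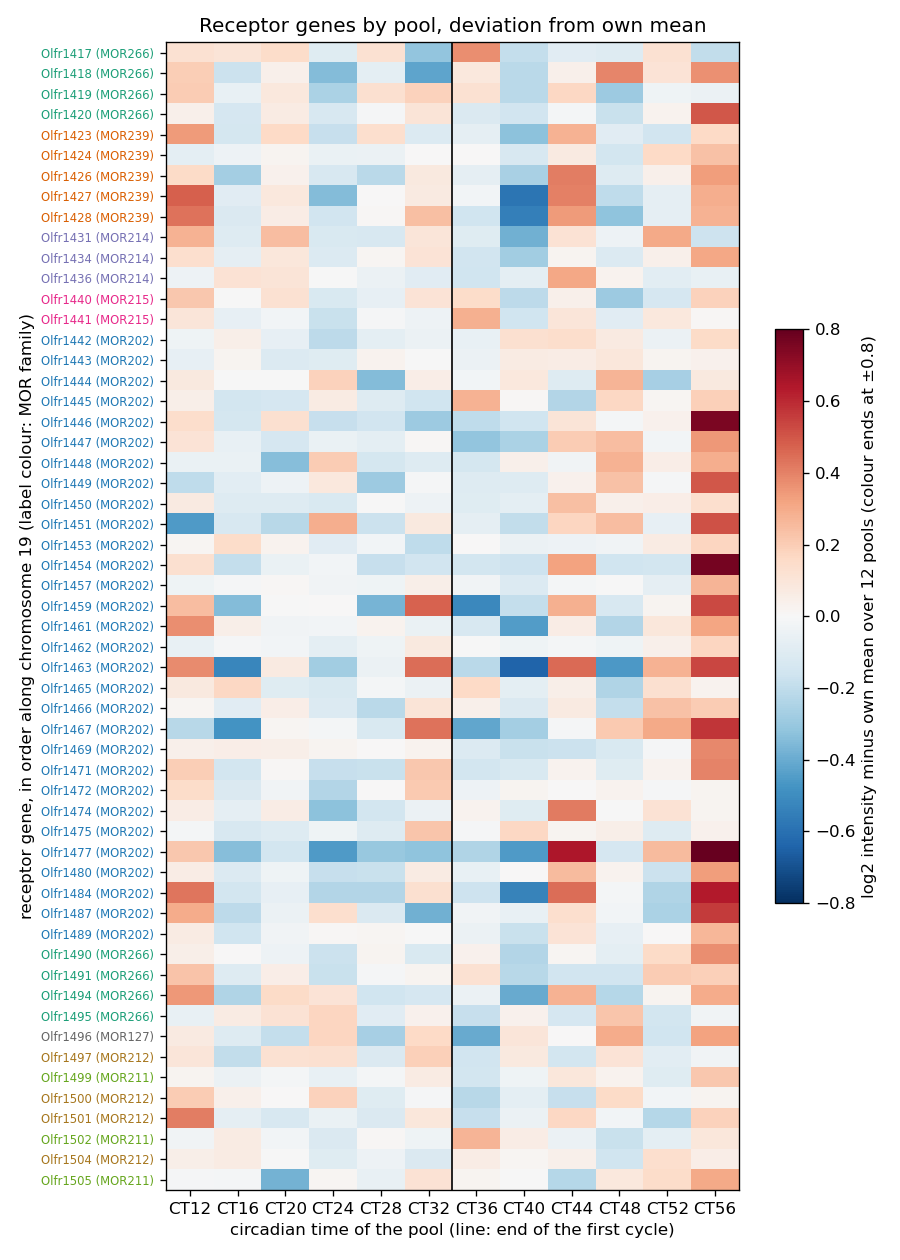
Log2 intensity minus the gene's own mean over 12 pools, for the 56 receptor genes (rows, in order along chromosome 19, labels coloured by MOR family) in the 12 pools (columns, in order of time). The CT56 column is the reddest, with 50 of 56 genes above their own mean, and the CT40 column is blue, with 13 above.

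A rhythm of 24 h was asked for first, as the time course was laid out to find genes that follow circadian time. Of the 56 receptor genes, 0 passed an adjusted p of 0.05 (limma, moderated F test of a 24 h cosine and sine, Benjamini-Hochberg over all genes), against 0.0251% of all genes. At an unadjusted p under 0.05 there were 5 members (8.93%), against 3.54% of all genes and 29 of the 970 other odorant receptors. The amplitude, the distance from mean to peak on the log2 scale, had a median of 0.08 over the members, 0.08 over other receptors and 0.06 over all genes. In the same fit the clock output factor Dbp had an amplitude of 0.51, the clock repressor Nr1d1 of 0.42 and the clock activator Arntl of 0.35, each past the threshold. The clock genes Per3 (0.24) and Ciart (0.51) did not pass it.

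Olfr1467, of MOR202, had the smallest p among the members. Its log2 intensity was 7.97, 7.72, 8.21, 8.18, 8.07 and 8.63 from CT12 to CT32, then 7.78, 7.92, 8.18, 8.41, 8.50 and 8.76 from CT36 to CT56. It was low in the first hours of both subjective nights and highest at the last day pool of each cycle. The fitted amplitude was 0.31 (SE 0.09), a peak 1.54 times the trough, with the peak at CT4.30 (adjusted p = 0.996).

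Olfr1505, of MOR211, read 6.48, 6.47, 6.11, 6.50, 6.43 and 6.60 from CT12 to CT32, then 6.51, 6.48, 6.26, 6.57, 6.63 and 6.79 from CT36 to CT56. It was lowest at phase 20 h in both cycles, and its amplitude was 0.17 (SE 0.05, adjusted p = 0.996). Olfr1502, which differs from it at 1 of the first 50 coding bases, had an amplitude of 0.12 (SE 0.04). Its peak was at CT12.3, against CT7.40 for Olfr1505. Over the 12 pools the values of this pair had a Pearson's r of 0.08. The mean levels of 4.75 for Olfr1502 and 6.48 for Olfr1505 lie below the vomeronasal level of 6.60. The cause of the difference within the pair was not tested. The other members with an unadjusted p under 0.05 were Olfr1491 of MOR266, whose amplitude was 0.15 with its peak at CT8.58, and Olfr1436 of MOR214, with 0.13 and CT20.3. The mean level of Olfr1436, 4.83, also lies below 6.60.

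The next members by p were Olfr1440, the muscone receptor, with an amplitude of 0.14 (SE 0.06), Olfr1420 of MOR266 with 0.14, and Olfr1471, the gene with the E-box, with 0.14. The adjusted p of each was 0.996. Without the CT56 pool, where both read highest, the amplitude was 0.06 for Olfr1420 and 0.08 for Olfr1471. Fitted peaks fell in the subjective night for 11 members and in the subjective day for 45, against 305 and 665 of the other odorant receptors. Over all genes the counts were 9175 and 10762. CT56, a day pool, was the highest pool for 27 members, and peaks without it were not counted. The number of members with an unadjusted p under 0.05 was 2 without the CT16, CT44 or CT56 pool and 3 without the CT12, CT20, CT24, CT36, CT48 or CT52 pool. For these fits the share of all genes was not counted.

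**Figure D2:**
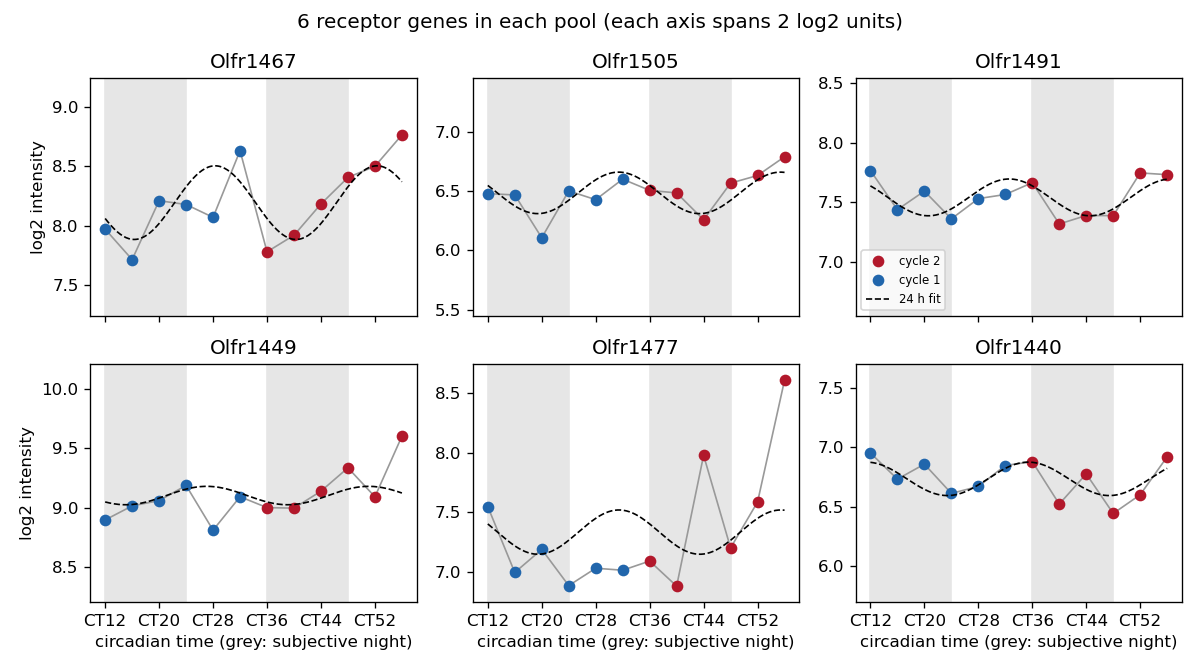
Log2 intensity of 6 receptor genes in each pool (red points cycle 2, blue points cycle 1), with the 24 h fit as a dashed line and subjective night in grey. Olfr1467 is low early in both nights, while Olfr1477 and Olfr1449 reach their highest value at CT56, at 8.61 and 9.60, where the 24 h fit lies well below them.

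Subjective night was also compared with subjective day as 6 pools against 6. No member passed an adjusted p of 0.05 (0 of 56, with 0% of all genes called by limma), and the lowest adjusted p was 0.497. At an unadjusted p under 0.05 there were 4 members (7.14%, against 9.86% of all genes), of which 0 were higher at night (4.17% of all genes) and 4 were lower (5.69% of all genes). The share lies near that of all genes. Night and day did not overlap for 0 members, against 0.231% of all genes.

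Olfr1467 had 7.97, 7.72, 8.21, 7.78, 7.92 and 8.18 at night, against 8.18, 8.07, 8.63, 8.41, 8.50 and 8.76 by day. The night values were lower by 0.46 on average (SE 0.12, adjusted p = 0.497), with an overlap between 8.07 and 8.21. Olfr1451, also of MOR202, averaged 8.44 ± 0.20 at night and 8.74 ± 0.25 by day (SD, n = 6 pools each). Olfr1505 averaged 6.38 ± 0.16 at night and 6.59 ± 0.12 by day, and Olfr1448 of MOR202 averaged 8.86 ± 0.13 at night and 9.05 ± 0.19 by day. The members with the smallest p among those higher at night were Olfr1417, with a difference of 0.16 (SE 0.10, adjusted p = 0.522), Olfr1502 with 0.10, Olfr1474 with 0.13 and Olfr1504 with 0.08. Without the CT36 pool the difference was 0.10 for Olfr1417 and 0.06 for Olfr1502, and for Olfr1474 it was 0.08 without CT24 and 0.06 without CT44.

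Of the 56 members, 20 had a higher mean at night and 36 a lower one, with a median difference of -0.03, as against -0.03 over other odorant receptors and 0.00 over all genes. This split turned with the CT56 pool, a day pool, since 31 of 56 were higher at night without it. The number with an unadjusted p under 0.05 was 2 without the CT12, CT20 or CT56 pool, and the share of all genes was not counted there.

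The second cycle was set against the first with the phase of day held equal, as a check for drift over time in darkness. The labels give no batch, and a batch running with time in darkness and that time itself cannot be told apart. The adjusted p was under 0.05 for 0 of 56 members and 0% of all genes (limma), and the lowest among the members was 0.320. At an unadjusted p under 0.05 there were 7 members (12.5%), against 13.2% of all genes and 134 of the 970 other odorant receptors. All 7 were higher in cycle 2 and belonged to MOR202, against 4.22% of all genes higher and 8.94% lower, and 81 other receptors higher and 53 lower. No member was separated between cycles (0 of 56, against 1.01% of all genes).

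The smallest p was that of Olfr1449. It had 9.00, 9.00, 9.14, 9.34, 9.09 and 9.60 in cycle 2, against 8.90, 9.02, 9.06, 9.19, 8.81 and 9.09 in cycle 1. Cycle 2 was higher in 5 of 6 pairs of pools at the same phase, by 0.18 on average (SE 0.07, adjusted p = 0.320), and by 0.12 without the pair CT56 and CT32, and the cycles overlapped. Olfr1477 had 7.09, 6.88, 7.98, 7.20, 7.59 and 8.61 in cycle 2, against 7.55, 6.99, 7.19, 6.88, 7.03 and 7.01 in cycle 1. Its difference of 0.45 (SE 0.20, adjusted p = 0.373) had 4 of 6 pairs higher and was 0.22 without the pair CT56 and CT32. The other 5 were Olfr1451 at 0.20, Olfr1448 and Olfr1474 at 0.16 each, Olfr1445 at 0.14 and Olfr1442 at 0.13.

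The members with the smallest p among those lower in cycle 2 had unadjusted p of 0.106 and above. They were Olfr1419 with a difference of -0.10, Olfr1428 with -0.16, Olfr1440 with -0.09, Olfr1500 with -0.11, Olfr1495 with -0.08 and Olfr1461 with -0.12. Without the pair CT36 and CT12 the difference was -0.07 for Olfr1428, -0.05 for Olfr1500 and -0.04 for Olfr1461. Without CT40 and CT16 it was -0.105 for Olfr1428 and -0.04 for Olfr1461. Without CT44 and CT20 it was -0.25 for Olfr1428 and -0.04 for Olfr1495, and without CT56 and CT32 it was -0.21 for Olfr1461. In 37 members the mean was higher in cycle 2 and in 19 it was lower, while 615 of the 970 other receptors (63.4%) and 38.3% of all genes were higher. In MOR202, 26 of 30 were higher, with a median of 0.07, against 3 of 8 in MOR266, 2 of 5 in MOR239, 1 of 4 in MOR212, 3 of 3 in MOR211, 0 of 3 in MOR214, 1 of 2 in MOR215 and 1 of 1 in MOR127. Without the pair CT56 and CT32, 19 of 30 in MOR202 were higher, and the mean of that family was 0.04, against 0.08 with all pairs. The difference between families was not tested.

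The mean over the members was 0.04 ± 0.14 higher in cycle 2 (SD over 6 pairs), with pair values of -0.17, -0.06, 0.11, 0.05, 0.09 and 0.24 in order of time. The mean turned on single pairs at either end. Without the pair CT56 and CT32 it was 0.00 and 28 of 56 members were higher, and without the pair CT36 and CT12 it was 0.09. The number of members with an unadjusted p under 0.05 was 12 without CT12 or CT36, 4 without CT20 or CT44, and 3 without CT24, CT28, CT32, CT48, CT52 or CT56. Shares of all genes were not counted for these fits.

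**Figure D3:**
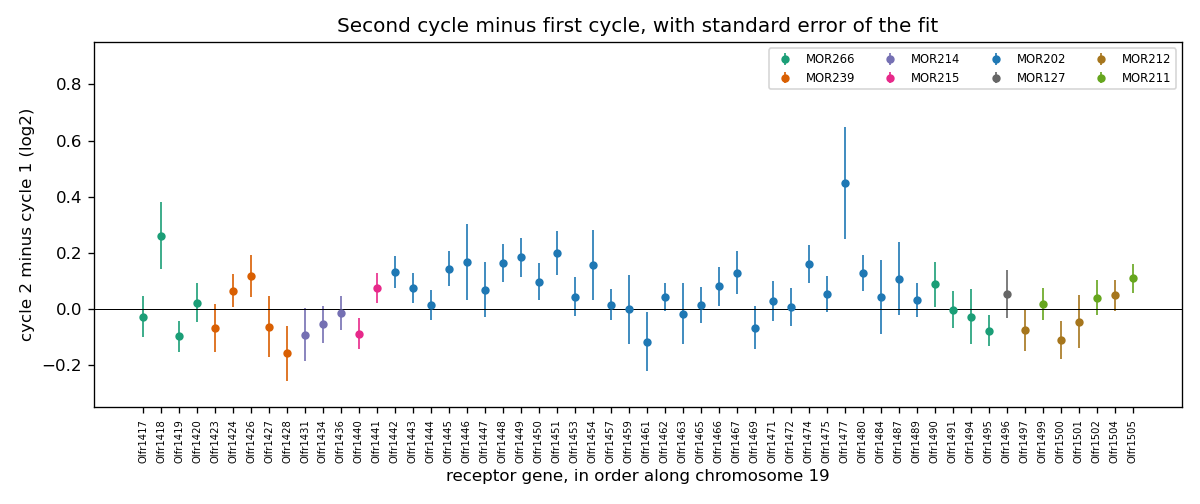
Cycle 2 minus cycle 1 in log2 for the 56 receptor genes in order along chromosome 19, with bars for the standard error of the fit and colours for the MOR family. Olfr1477 lies highest at 0.45 and Olfr1428 lowest at -0.16, and 26 of the 30 MOR202 genes lie above 0 (19 of 30 without the pair CT56 and CT32).

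A change of the rhythm between the cycles was tested as an interaction. It passed an adjusted p of 0.05 in 0 of 56 members (0% of all genes, limma) and an unadjusted p under 0.05 in 0 of 56 (0.717% of all genes). The smallest p were those of Olfr1453, Olfr1469 and Olfr1431, all of which had an adjusted p of 0.9999. The number with an unadjusted p under 0.05 was 4 without CT52 or CT56, 3 without CT44, and 1 without CT16, CT20, CT28 or CT36. Shares of all genes without these pools were not counted.

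The last pool stood apart for these receptors. At CT56, 50 of 56 members (89.3%) were above their own mean and 27 (48.2%) were at their highest, against 75.9% and 40.1% of the other odorant receptors, 46.1% and 12.6% of vomeronasal receptors and 42.9% and 15.9% of all genes. In MOR202, 30 of 30 were above their own mean and 20 were at their highest. Of the 26 members outside MOR202, 20 (76.9%) were above their own mean and 7 were at their highest there. The mean deviation of the members was 0.26 at CT56, followed by 0.11 at CT12 and 0.10 at CT44, and was lowest at CT40, at -0.15. CT40 was the lowest pool for 15 members (26.8%), against 16.5% of the other odorant receptors and 7.44% of all genes. The other odorant receptors had a like profile, with mean deviations of 0.20 at CT56, 0.06 at CT12, 0.08 at CT44 and -0.10 at CT40. The CT56 array also had the lowest mean correlation with the other arrays, 0.975, where the others had 0.981 to 0.988. Its part in the receptor values was not tested, and no second array of that pool was analysed here.

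Between the brightness of the probe and its deviation at CT56, Pearson's r was 0.08 and Spearman's rho 0.10 over the 56 genes, which share the arrays. After cyclic loess, which scales arrays by level, the members' mean at CT56 was 0.29 and 32 members were highest there. The 10 measured genes between the receptors had a mean deviation of 0.00 at CT56. Between cycles 0 of 10 had an unadjusted p under 0.05, against 13.2% of all genes, so with 10 genes this count does not set them apart. Of the 3 measured receptors that lie inside the second block under other numbers, Olfr235 was highest at CT56, at 7.45, and lowest at CT40, at 6.38. Olfr262 was highest at CT56, at 7.40, and lowest at CT24, and Olfr76 was highest at CT12, at 7.07, and lowest at CT24.

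Markers of the cell types of the tissue were read in the same pools. At CT56 the 11 mature neuron markers had a mean deviation of -0.07 and the 8 immature neuron markers -0.11. Of the mature markers, Gng13 and Cnga4 were above their own means and the rest below. Of the immature markers, Tubb3, Gap43, Ncam1 and Crmp1 were below theirs, and Dcx, Stmn2, Gng8 and Dpysl5 above. The 5 measured globose basal cell markers stood at 0.17, the 7 markers of respiratory ciliated cells at 0.28 and the 5 gland markers at 0.23. Mki67 of the globose list and Tekt1 of the ciliated list lay below their own means. The gland mean came from Bpifb9b (10.82, own mean 9.75, SD over pools 2.24) and Obp1a (11.38, own mean 11.14, SD 1.51). Gpx6, Muc5b and Sox9 lay below their own means. The muscle markers stood at -0.21, lymphocyte markers at -0.10, bone markers at 0.09, and horizontal basal and sustentacular markers at -0.05 each. Of the bone markers, Omd was above its own mean (7.81 against 7.23), and Ibsp, Col1a1 and Dmp1 were below theirs. The mature markers ranged from -0.15 to 0.12 over the pools. In cycle 2 minus cycle 1, 1 mature marker was higher and 5 were lower at an unadjusted p under 0.05 (4.22% of all genes higher and 8.94% lower), and 0 of 11 passed the adjusted p. Omp, the olfactory marker protein, had a difference of -0.20 and Adcy3 of -0.22 (adjusted p = 0.304 each). Of the 8 immature markers, 0 were higher and 7 were lower at an unadjusted p under 0.05 in this contrast, with 0 past the adjusted p. Their mean difference was -0.19, against -0.11 for the mature markers. The part of these cell types in the receptor values was not tested.

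Genes that act on the receptors were read from the same fits. Of 15 factors of receptor choice, 0 were higher and 7 were lower in cycle 2 at an unadjusted p under 0.05 (4.22% of all genes higher and 8.94% lower), and 0 passed the adjusted p. Ehmt1, a histone methyltransferase, had -0.25 and Lhx2 had -0.17 in that contrast. Of 4 genes of receptor trafficking to the membrane, 0 were higher and 1 was lower at an unadjusted p under 0.05, Rtp1 with -0.17 (adjusted p = 0.304). Ric8b had -0.08, Rtp2 -0.06 and Reep1 0.04. Of 16 measured transduction genes 1 was higher and 8 were lower at an unadjusted p under 0.05, beside the same 4.22% and 8.94% of all genes, with 0 past the adjusted p. Of the 16 transduction genes 10 are also mature neuron markers, while the receptor choice and trafficking lists share 0 genes with those markers.

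**Figure D4:**
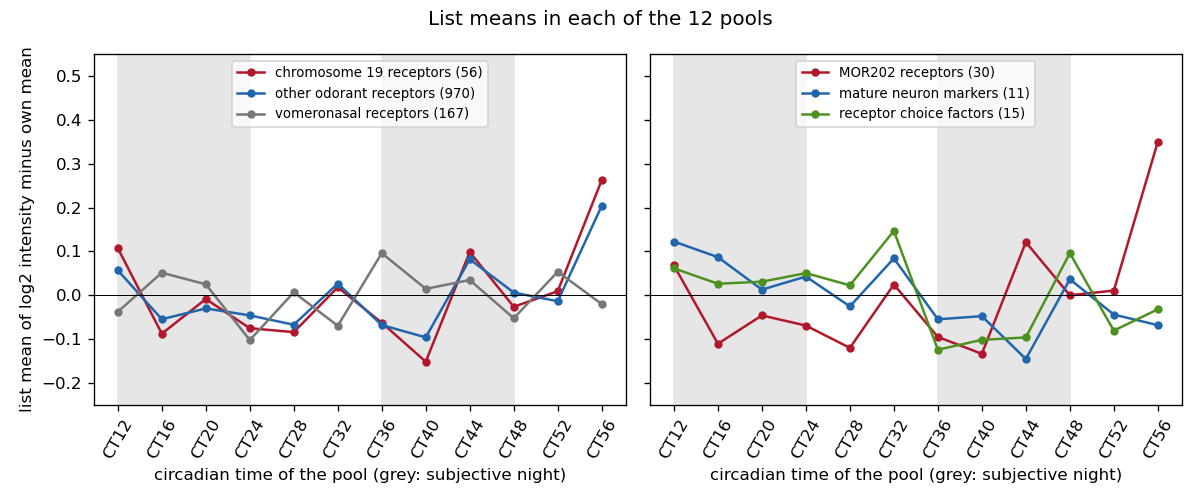
Mean over each list of log2 intensity minus the gene's own mean, in each of the 12 pools (grey is subjective night), for the 56 chromosome 19 receptors beside other odorant and vomeronasal receptors (left) and for the 30 MOR202 receptors beside 11 mature neuron markers and 15 receptor choice factors (right). At CT56 the MOR202 mean is 0.35 and the mature marker mean is -0.07.

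Receptors of the cluster varied together over the pools to a modest degree, given here as a description over pairs that share the same 12 arrays. Pairs among the other odorant receptors, whose mean was also highest at CT56 and lowest at CT40, were not computed. Whether such pairs vary together less was therefore not tested. The median Pearson's r was 0.50 over 52 pairs of neighbours, against 0.29 over 1488 pairs that are not neighbours. Over 486 pairs of the same MOR family it was 0.37, against 0.25 over 1054 pairs of different families. Without the CT56 pool the medians were 0.38 for neighbours and 0.17 for the others, and 0.18 within and 0.17 between families. The highest r was that of the neighbours Olfr1427 and Olfr1428 of MOR239, 0.95 over 12 pools and 0.94 without CT56, and 30 of their first 50 coding bases are identical. Olfr1428 read 8.50 at CT12, 7.52 at CT40 and 8.40 at CT44, where Olfr1427 read 7.72, 6.65 and 7.64. The identical starts of Olfr1446 and Olfr1447 shown above went with an r of 0.67, and 0.47 without CT56. Over the 40 pairs with 40 or more of 50 bases identical the median r was 0.25, against 0.28 over 1041 pairs with fewer.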

How the data were processed

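Values were the deposited log2 intensities, 1 per probe and pool, with the unit read from their range. The submitters' processing notes name the tool affy with no version, and how the authors corrected background, normalized or centred the values is not given in the sources used here. Per the labels' protocols, Trizol RNA was amplified with a random-primed kit and hybridised with biotin label. Of 34760 probes, 21640 had 1 symbol in the platform annotation, 1321 had several and 11799 were not listed. Of the 1-symbol probes 21553 matched RefSeq (GRCm38.p6) by Entrez ID. The probe with the highest mean stood for a gene with several. Also, 3 probes that name members together with other receptors were left out.

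limma 3.58.1 (R 4.3.3) was run on all 19937 genes, read at a Benjamini-Hochberg adjusted p of 0.05, with 9 residual degrees of freedom for the 24 h fit, 10 for night against day and 5 for the cycles. Fits were tested on simulated data. Figures were drawn with matplotlib 3.10.9. The rule for names took the members with the smallest p in each fit, the brightest and dimmest probes and the largest spread. Its part on protein identity was not run, as no protein table was used. Olfr76, Olfr235, Olfr262 and Olfr1427 with Olfr1428 as a pair were named after their values were seen. The members and lists were chosen with earlier results of these data known. The alternatives were other scalings and centring, a filter at the 25th percentile, the mean of probes, array weights, a trended prior, other periods, other covariates and leaving out pools.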

Additional observations from a re-analysis of the deposited data

Results flagged for a closer look

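In groups of 6 pools, a pool was picked where its gap to the nearest value was a large share of the group's range. The screen picks about 5% of groups by chance if they are independent and not chosen by their values. It picked 12 of 168 groups, where chance on those terms gives 8.4, and 6 of the 12 were at CT56. Those terms were not met. The 42 profiles screened included 34 members named for their p, brightness or spread in these same pools. The mean of the 56 receptors also holds the MOR202 genes. All profiles share the 12 arrays, and each pool was read both by night or day and by cycle. The count of 12 therefore cannot be judged against 8.4. The CT56 pool was high among the day pools for the mean of the 56 receptors (gap of 0.705 of the range), for the mean of MOR202 (0.693) and for Olfr1469 (0.701). It was high among the cycle 2 pools for Olfr1420 (0.694), Olfr1471 (0.672) and Olfr1469 (0.703). Among the night pools, Olfr1502 was high at CT36 (0.653), Olfr1474 at CT44 (0.69) and Olfr1453 at CT16 (0.631). Among the cycle 1 pools, Olfr1461 was high at CT12 (0.771), Olfr1505 was low at CT20 (0.65) and Olfr1444 was low at CT28 (0.645).

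For 4 profiles every night pair of pools was lower in cycle 2 and every day pair was higher. The night pairs' difference minus the day pairs' difference was -0.23 for the mean of MOR266, -0.28 for Olfr1491, -0.26 for Olfr1453 and -0.26 for Olfr1434. These differences were not tested beyond the interaction fit, which called none of the 3 genes.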

How the results depend on the processing

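In all 4 comparisons 0 of the 56 receptors passed the adjusted p under every alternative run. The 657 alternative values of the members named kept their side of the threshold, and those for night against day and for the cycles kept their direction. Values of the 24 h fit and of the change of rhythm are amplitudes without a sign, so no direction could turn there. Peak times were not compared. Sizes moved: the 24 h amplitude was 0.03 to 0.18 for Olfr1420 and 0.04 to 0.18 for Olfr1471, lowest without CT32 and CT56. Counts of members at an unadjusted p under 0.05 moved. The share of all genes was not counted under the alternatives, so these counts cannot be set against all genes. For the 24 h rhythm the count of 5 was 2 with dim genes left out (which kept 16 members), 3 at a period of 22 h or 26 h, and 2 to 6 when each pool was left out. For night against day the count of 4 was 12 with array weights, 2 without CT32 and CT56 together and 2 to 6 without each pool. The 20 members higher at night became 3 of 16 with dim genes left out, 38 with array weights, 37 without CT32 and CT56 and 14 to 31 without each pool. For the cycles the count of 7 was 4 after quantile normalization, cyclic loess or a trended prior, 12 with array weights, 3 without CT32 and CT56, 2 with no phase term, 1 with a 24 h cosine and sine, and 3 to 12 without each pool. The 37 members higher became 9 of 16 with dim genes left out. For the change of rhythm the count of 0 was 11 with array weights, whose fit did not reach its tolerance, 2 without CT32 and CT56, and 0 to 4 without each pool. Beyond fewer genes or pools, the cause was not tested. Dim probes, of which 27 of 56 members lay below the vomeronasal level of 6.60, limit what could be seen.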
